A study of Bos taurus with 6 samples.

Results

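DPT, TGFBI, MXRA5, COMP, FBN1, FN1, TNC, THBS1, SPARC and POSTN encode secreted proteins that link cells, collagens and microfibrils in the extracellular matrix. These are 10 of the 9174 genes named on the Affymetrix Bovine Genome Array, and they were followed through every probe set annotated with 1 of their symbols, which gave 18 of the 24016 probe sets tested. THBS1 has 6 of these probe sets, COMP, FN1 and TNC have 2 each, and the other genes have 1 each. MXRA5 carries its name only from the study's own list of regulated genes, because the array annotation leaves its probe set blank. The genes were chosen by family with their TGF-β differences on these same arrays already known. All values of that contrast are therefore a description, and nothing is concluded from how many of the 10 genes differ.

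The arrays came from articular chondrocytes, the cells of joint cartilage, taken from bovine metacarpal-phalangeal joints and grown in micromass culture, where cells are plated at high density in a small drop. In the TGF-β group, 3 cultures received TGF-β1 at 5 ng/ml, and RNA was taken after 8 hours. The 3 cultures labelled untreated received vehicle over the same 8 hours. Each group is numbered 1 to 3, and the study's methods describe cultures of 3 cows with and without TGF-β, whose breed, age and sex are not given in the sources used here. RNA was taken from whole cultures, so fewer cells of a type and less RNA per cell cannot be told apart.

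The group holds proteins of different kinds. Dermatopontin (DPT) is a small protein that binds the proteoglycan decorin and collagen fibrils. TGFBI and periostin (POSTN) are adhesion proteins built from the same repeated fasciclin (FAS1) domain and bind integrins. COMP and thrombospondin 1 (THBS1) belong to the thrombospondin family, tenascin C (TNC) and SPARC are matricellular proteins that modulate adhesion, and fibronectin (FN1) is a main scaffold to which cells attach. Fibrillin 1 (FBN1) forms the microfibrils that hold latent TGF-β through the LTBP proteins. TGF-β is known to induce several of these genes in mesenchymal cells, and TGFBI is named for that response. No sequence of these genes or of the probes was used here.

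The deposited values are log2 signals in which every probe set was centred on its own median over the 6 arrays. A value of 0 is thus the middle of that probe set, and whether a gene is abundant or scarce cannot be read. The labelled cell type could not be checked for the same reason, since the level of COL2A1 or ACAN is lost. Array medians lay between -0.01 and 0.02. The first principal component held 56.4% of the variance and set both replicate 3 arrays apart. Of 40 probe sets of cell cycle genes, the median was 1.81 and 2.06 on the TGF-β and untreated arrays of replicate 3, against -0.27 to -0.05 on the other 4 arrays. The spike-in controls, bacterial transcripts added to each sample, had a median of 1.53 on the TGF-β array of replicate 2 and lay between -0.17 and 0.06 elsewhere. Among 11 probe sets of known TGF-β targets, 8 were higher with TGF-β and 0 were lower in the fit described next. The 8 include a probe set of PMEPA1 and another of LTBP1 named only from the study's list of regulated genes. Those could enter only as regulated, so their calls are no separate check.

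Differences are TGF-β minus untreated and were fitted with limma over all 24016 probe sets, with a term for the replicate number, called the paired fit below. A probe set is counted as higher or lower where its p, adjusted by Benjamini-Hochberg over all probe sets, was under 0.05. The standard error (SE) is limma's, which draws each variance toward that of all probe sets and can be smaller than the spread of the 3 differences shows. By this count 6 of the 18 probe sets, from 5 genes, were higher with TGF-β and 0 were lower. Over all probe sets, 2.44% were higher and 3.46% were lower. As the contrast was known when the genes were chosen, nothing is read from the difference between these shares. The groups did not overlap in 5 of the 18 probe sets, with the TGF-β group on top each time, and in 0 the other way, against 6.11% and 4.91% of all probe sets. When limma was run on the groups alone, without the replicate number, 0 of the 18 probe sets and 0 of all probe sets passed, with 5 and 1377 at an unadjusted p under 0.05. Every call below rests on the pairing. The median difference was 0.23 over the 18 probe sets, against 0.01 over all probe sets.

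TGFBI had the widest difference of the group, and it ranked 3 of 24016 from the top by difference. The TGF-β arrays of replicates 1, 2 and 3 had 1.95, 1.20 and 1.81 log2 units, against -2.15, -1.20 and -1.85 on the untreated arrays. Every TGF-β array was well above every untreated array, and replicate 2 sat closest to the middle on both sides. The difference was 3.39 (SE 0.264, n = 3 pairs), a fold of 10.5, with 4.10, 2.40 and 3.65 in the 3 replicates. The replicate means of TGFBI, each taken over both arrays, ran only from -0.10 to 0.00, since in replicate 2 a lower TGF-β value stood beside a higher untreated value. Of the variation over the 6 arrays, 95.6% lay between TGF-β and untreated and 0.0575% between replicates.

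DPT was also higher in every pair, and its untreated cultures were unlike each other. The TGF-β arrays had 0.48, 0.82 and 1.0, against -2.56, -0.48 and -2.76 on the untreated arrays. The 3 TGF-β cultures lay close together. Among the untreated cultures, replicate 2 stood far above the others, yet below every TGF-β array. The difference was 2.70 (SE 0.364, n = 3 pairs), a fold of 6.49, and the 3 differences of 3.04, 1.30 and 3.76 had an SD of 1.26. With a prior that gives less weight to the common variance where a probe set is unusually variable (limma's robust option), DPT had an adjusted p of 0.0552, against 0.00477 in the paired fit. Of the other 5 probe sets, only Bt.13599.1.A1_at of COMP lost its call under that option (adjusted p = 0.0716).

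MXRA5, which encodes a large secreted protein with leucine-rich and immunoglobulin-like repeats, had 0.68, 0.85 and 0.96 on the TGF-β arrays, against -0.72, -0.68 and -1.34 on the untreated arrays. The groups were clearly apart, and the untreated culture of replicate 3 was the lowest. The difference was 1.74 (SE 0.169, n = 3 pairs), a fold of 3.35. Replicate 3 had the widest difference, 2.30, against 1.40 and 1.53 in replicates 1 and 2. The study listed TGFBI and MXRA5 among its regulated genes on these same arrays, so that list is no separate evidence for either.

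**Figure D1:**
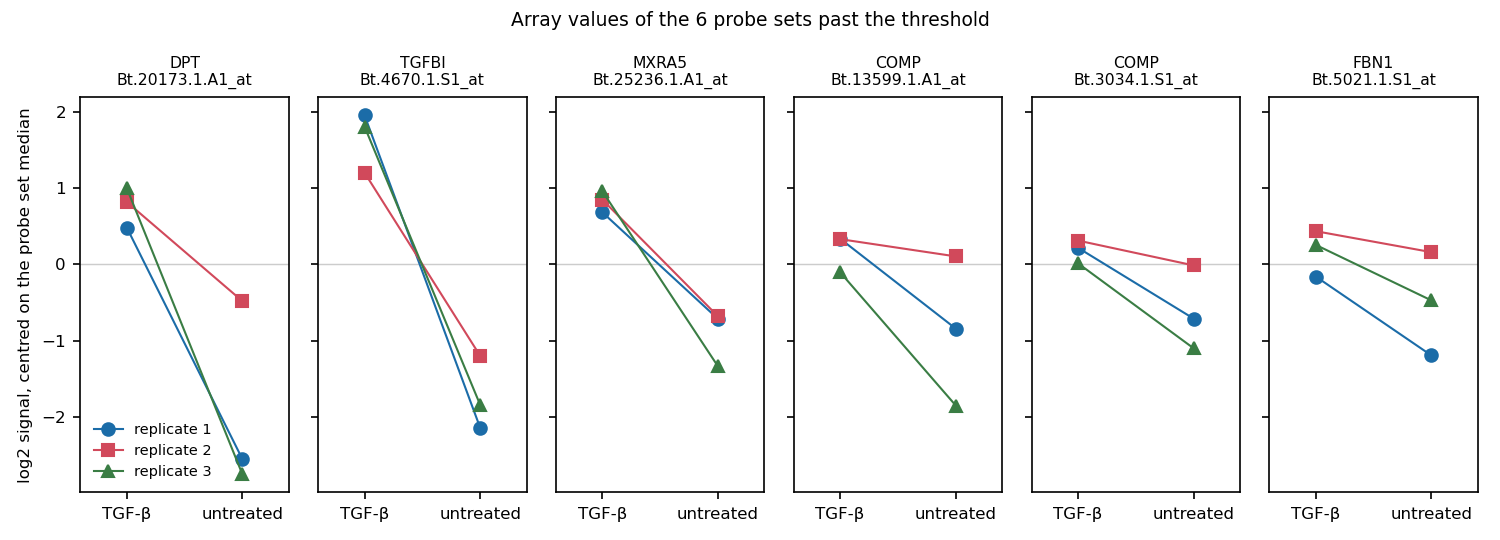
Centred log2 signal of the 6 probe sets past the threshold on the TGF-β (left) and untreated (right) arrays, with lines joining arrays of the same replicate number. Every line falls toward the untreated side, and the untreated array of replicate 2 (squares) is the highest untreated array in all 6 panels.

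COMP, a pentameric protein of cartilage that binds collagens and is itself a thrombospondin, was measured by a pair of probe sets that moved together over the 6 arrays (r = 0.98, a description over 6 arrays). Probe set Bt.13599.1.A1_at had 0.34, 0.33 and -0.10 on the TGF-β arrays, against -0.84, 0.10 and -1.85 on the untreated arrays. The TGF-β array of replicate 3 lay below the untreated array of replicate 2, so the groups overlapped, although each pair was higher with TGF-β. Its difference was 1.05 (SE 0.237, n = 3 pairs), a fold of 2.07. Probe set Bt.3034.1.S1_at had 0.22, 0.31 and 0.01 on the TGF-β arrays, against -0.71, -0.01 and -1.10 on the untreated arrays. Here the groups did not overlap, by a narrow margin. Its difference was 0.79 (SE 0.154, n = 3 pairs), a fold of 1.73. In both probe sets replicate 2 had the smallest difference, 0.23 and 0.33, and replicate 3 the widest, 1.75 and 1.12.

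FBN1 had -0.16, 0.44 and 0.26 on the TGF-β arrays, against -1.20, 0.16 and -0.47 on the untreated arrays. The TGF-β culture of replicate 1 was below the untreated culture of replicate 2, yet each pair was higher with TGF-β, by 1.04, 0.28 and 0.73. The difference was 0.68 (SE 0.148, n = 3 pairs), a fold of 1.60. Calls of COMP and FBN1 were not firm. Both COMP probe sets and FBN1 lost theirs without replicate 1, with an adjusted p of 0.0876 and 0.0752 for COMP and 0.153 for FBN1. Probe set Bt.13599.1.A1_at of COMP and FBN1 lost theirs without replicate 3 as well (0.0557 and 0.0520). All 3 probe sets lost theirs after quantile normalization (0.0849, 0.0653 and 0.103). That step was run on the centred values, so it gave arrays with SDs from 0.23 to 0.47 the same spread.

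A feature shared by these probe sets was the place of replicate 2. In 5 of the 6, replicate 2 had the smallest difference, and in 6 of the 6 its untreated array was the highest of the 3 untreated arrays. Of the 585 probe sets higher with TGF-β, 38.6% had their smallest difference in replicate 2 and 40.2% had their highest untreated value there. The pattern was read from the contrast by which the genes were known, so it is a description. A high untreated value itself narrows the difference of its pair, so these counts are not separate. COMP enters with both its probe sets. In MXRA5 the untreated arrays of replicates 1 and 2 were close, at -0.72 and -0.68. The median difference of the 6 was 1.29, 0.81 and 2.02 in replicates 1, 2 and 3, against 0.74, 0.68 and 0.66 over the 585. Chondrocyte markers, 13 probe sets of 7 genes, were also high in replicate 2, with a median of 0.60 on its TGF-β array and 0.31 on its untreated array, against -0.31 to -0.01 on the other 4 arrays. Fibroblast or synovial markers, 15 probe sets, likewise had medians of 0.13 and 0.32 on these arrays, against -0.18 to -0.01 on the other 4. The TGF-β array of replicate 2 is also the one with bright spike-in controls. The part of the markers or the spike-in controls in the small differences was not tested.

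**Figure D2:**
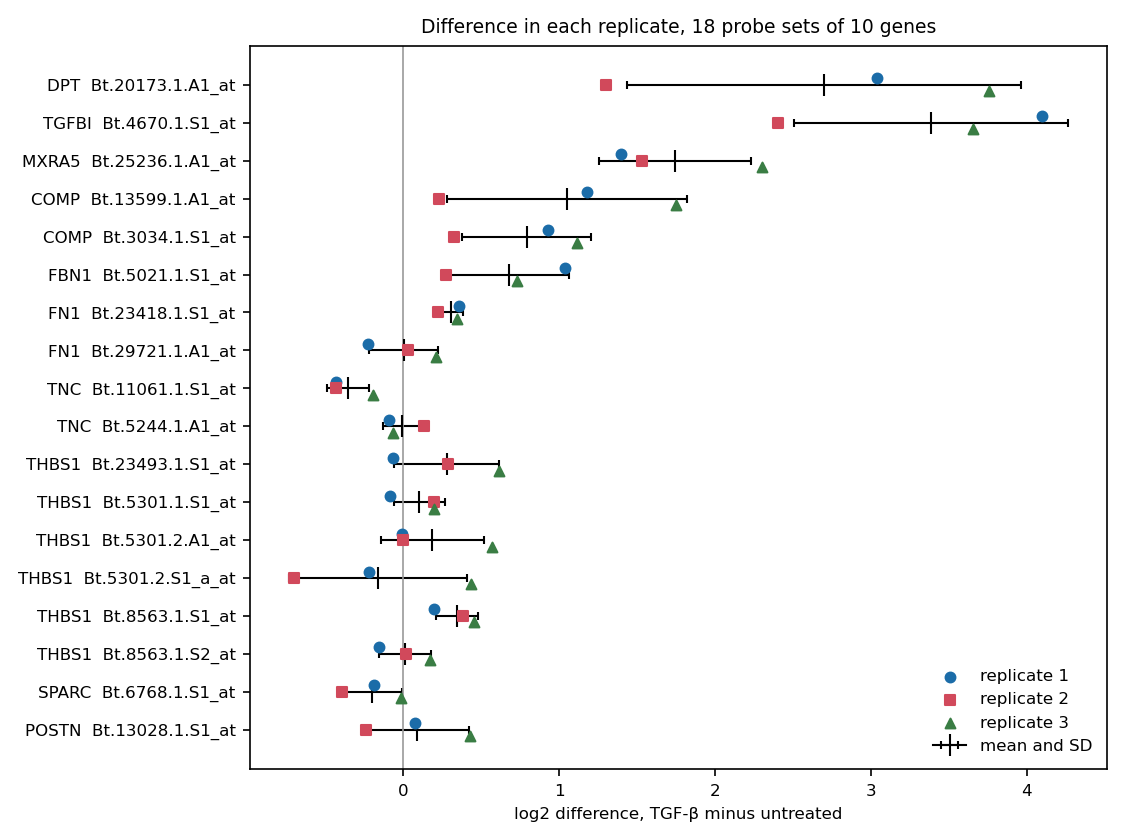
Log2 difference, TGF-β minus untreated, in each replicate (points) for the 18 probe sets, with the mean (vertical tick) and SD of the 3 differences (bar). The probe sets of DPT, TGFBI, MXRA5, COMP and FBN1 lie right of 0 in every replicate, as do Bt.23418.1.S1_at of FN1 and Bt.8563.1.S1_at of THBS1 by smaller amounts, while Bt.11061.1.S1_at of TNC and SPARC lie left of 0 in every replicate.

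The other 12 probe sets, from FN1, TNC, THBS1, SPARC and POSTN, did not pass the threshold. Their 95% intervals in the paired fit all lay between -0.60 and 0.59 log2 units, or between 0.658-fold and 1.51-fold. Since signal levels are lost, a dim probe set that cannot follow its transcript and a transcript that did not move cannot be told apart.

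FN1, the fibronectin gene, was measured by 2 probe sets, and neither passed. On Bt.23418.1.S1_at the TGF-β arrays had -0.14, 0.36 and 0.21, against -0.50, 0.13 and -0.13 on the untreated arrays. Each TGF-β culture exceeded its own untreated partner, by 0.36, 0.22 and 0.34, while the groups as a whole overlapped. The difference was 0.31 (SE 0.106, 95% interval 0.07 to 0.55), with an adjusted p of 0.142. The second probe set, Bt.29721.1.A1_at, had -0.23, 0.03 and 0.21 in the 3 replicates and a difference of 0.00 (95% interval -0.27 to 0.28). The 2 probe sets hardly moved together over the 6 arrays (r = 0.07).

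TNC, measured by 2 probe sets, lay below its untreated partner in each pair on Bt.11061.1.S1_at. The TGF-β arrays had -0.33, -0.54 and 1.25, against 0.10, -0.10 and 1.45 on the untreated arrays. Both arrays of replicate 3 were far above the other 4. The difference was -0.35 (SE 0.110, 95% interval -0.60 to -0.10), with an adjusted p of 0.108. The other probe set, Bt.5244.1.A1_at, had a difference of -0.01 (95% interval -0.26 to 0.24) and, like the first, its highest replicate mean in replicate 3, within array values from -0.28 to 0.20.

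THBS1 encodes thrombospondin 1, which can release active TGF-β from its latent complex. Its 6 probe sets had differences from -0.16 to 0.34, and 5 of the 6 were above 0. Array values ran from -0.77 to 0.84. The highest difference was that of Bt.8563.1.S1_at, with 0.07, 0.11 and 0.38 on the TGF-β arrays, against -0.13, -0.27 and -0.07 on the untreated arrays. This was the fifth probe set in which the groups did not overlap, with a difference of 0.34 (SE 0.110, 95% interval 0.09 to 0.59; adjusted p = 0.119). The lowest was that of Bt.5301.2.S1_a_at, with -0.15, -0.77 and 0.84 on the TGF-β arrays, against 0.07, -0.07 and 0.41 on the untreated arrays. The other 4 had 0.28 (Bt.23493.1.S1_at), 0.10 (Bt.5301.1.S1_at), 0.19 (Bt.5301.2.A1_at) and 0.01 (Bt.8563.1.S2_at), each with a 95% interval that holds 0. In all 6 probe sets the difference was highest in replicate 3.

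SPARC, which binds collagen and calcium, had -0.13, 0.06 and -0.08 on the TGF-β arrays, against 0.06, 0.45 and -0.06 on the untreated arrays. It lay below its untreated partner in each pair, with differences of -0.19, -0.40 and -0.02, and the groups overlapped. The difference was -0.20 (SE 0.116, 95% interval -0.47 to 0.06). POSTN had 0.04, -0.10 and 0.29 on the TGF-β arrays, against -0.04, 0.14 and -0.14 on the untreated arrays, with no common direction over the 3 pairs. Its difference was 0.09 (SE 0.139, 95% interval -0.23 to 0.40), beside 3.39 for TGFBI, the other FAS1 adhesion protein of the group. Likewise COMP had 1.05 and 0.79, beside -0.16 to 0.34 for THBS1 of the same family.

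Differences between replicates played no part in the choice of the genes and were tested on their own, by limma's F test of the replicate number in the paired fit. Of the 18 probe sets, 5 passed at an adjusted p under 0.05, 1 each of COMP, FBN1, FN1, TNC and THBS1. Over all probe sets 27.5% passed, close to the share of the 18. TNC had the lowest adjusted p of the 5, 9.18e-05 by limma's F test. Its probe set Bt.11061.1.S1_at averaged 1.35 in replicate 3, against -0.11 and -0.32 in replicates 1 and 2, and 94.1% of its variation lay between replicates. Replicate 3 is also the pair with high cell cycle genes, and the part of this in the TNC values was not tested. Without replicate 3, TNC had an adjusted p of 0.461 for the replicate term, so the call rests on that pair.

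The replicates did not order the genes in the same way. FBN1 was lowest in replicate 1 and highest in replicate 2, with replicate means of -0.68, 0.30 and -0.11 (adjusted p = 0.0108 by limma's F test). FN1 on Bt.23418.1.S1_at had the same order, -0.32, 0.25 and 0.04 (adjusted p = 0.0258 by limma's F test). COMP on Bt.13599.1.A1_at was lowest in replicate 3, with -0.25, 0.22 and -0.98 (adjusted p = 0.0353). THBS1 on Bt.5301.2.S1_a_at was lowest in replicate 2 and highest in replicate 3, with -0.04, -0.42 and 0.63 (adjusted p = 0.0233). FBN1 and FN1 lost these calls without replicate 1 (adjusted p = 0.115 and 0.397), FN1 also without replicate 2 (0.0743), and COMP and THBS1 without replicate 3 (0.172 and 0.183). DPT, whose untreated arrays spread over more than 2 log2 units, had replicate means of -1.04, 0.17 and -0.88 and did not pass (adjusted p = 0.129 by limma's F test). Replicate 1 had the highest of the 3 means in 0 of the 18 probe sets and replicates 2 and 3 in 9 each, against 28.8%, 37.8% and 33.4% of all probe sets, though probe sets of 1 gene share its transcript.

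**Figure D3:**
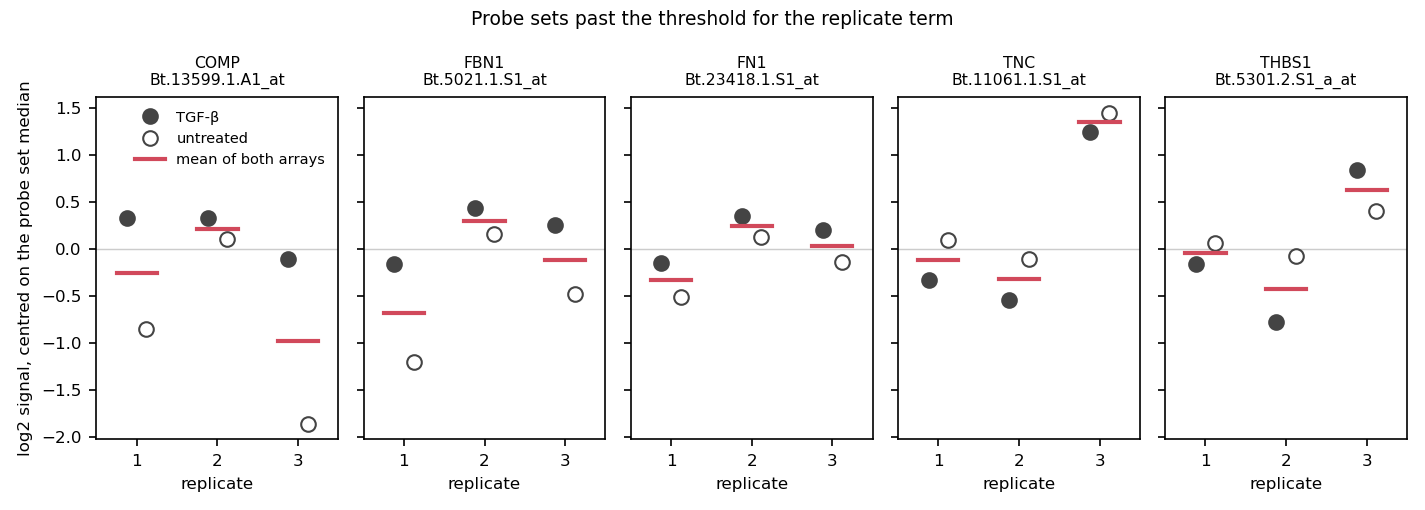
Centred log2 signal by replicate number for the 5 probe sets that passed the replicate term, with TGF-β arrays as filled and untreated arrays as open circles and the mean of both as a line. TNC stands high in replicate 3 on both arrays, FBN1 and FN1 are lowest in replicate 1, and COMP is lowest in replicate 3.

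The genes thus differed in where their variation lay. Treatment held 95.6%, 93.6% and 76.8% of the sum of squares over the 6 arrays for TGFBI, MXRA5 and DPT. In COMP it held 44.8% and 58.9%, and in FBN1 38.5%, less than the 53.3% between replicates. In both TNC probe sets, replicates held over 90%. The replicate means of Bt.5244.1.A1_at spanned only 0.40, against 1.67 on Bt.11061.1.S1_at, and it did not pass the replicate term (adjusted p = 0.114 by limma's F test). In POSTN and the second FN1 probe set, most of the variation (87.1% and 84.6%) lay in neither, as the pairs did not move together. The median probe set of the array had 11.9% in treatment and 59.6% between replicates. For the 18 probe sets these medians were 28.2% and 41.5%, of which the share in treatment follows from how the genes were chosen.

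**Figure D4:**
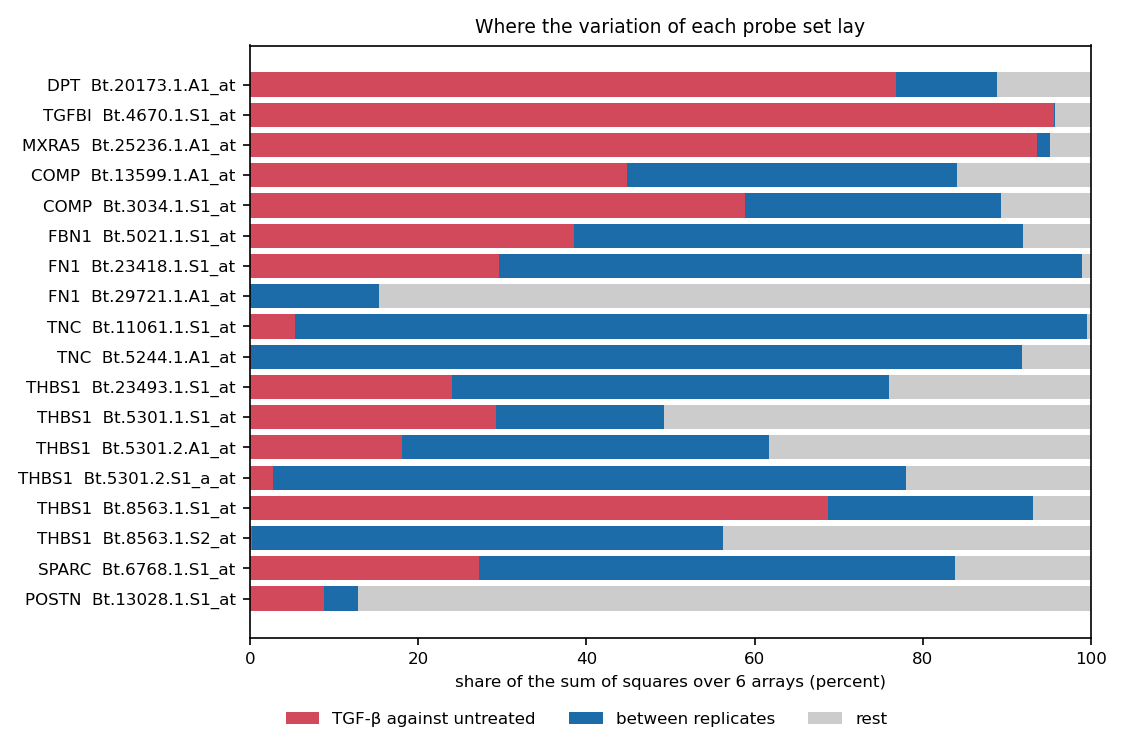
Share of the sum of squares over the 6 arrays, in percent, that lay between TGF-β and untreated, between replicates, or in neither, for each of the 18 probe sets. The bars of TGFBI and MXRA5 are almost wholly treatment, and those of TNC almost wholly replicate.

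Related matrix genes were taken from 8 lists by protein family, with the 10 genes left out. The lists name 74 further genes, of which 42 were measured, by 64 probe sets annotated with their symbols. The others had no such probe set, so nothing is known of them here. Of the 42 genes, 6 (9 probe sets) were higher with TGF-β and 2 (3 probe sets) were lower, and the median difference was 0.06. Over all probe sets these shares were 2.44% and 3.46%. LTBP1 and CCN3 are on the study's own list from these arrays, so their calls are not independent of it. The LTBP1 probe set with the wider difference (1.65) and both CCN3 probe sets carry their names only from that list. A probe set left blank by the array annotation could enter here only if the study had listed it as regulated. These probe sets are in the counts above, so nothing is read from the counts beside the shares over all probe sets.

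The list named fibrillins, fibulins and microfibril proteins holds 31 genes, of which 17 were measured. Of the 16 measured besides FBN1, LTBP1, LTBP2 and ELN were higher and 0 were lower. LTBP1, which tethers latent TGF-β to the matrix, had differences of 1.65 and 1.24 on its 2 probe sets (SE 0.131 and 0.115), and LTBP2, a related microfibril protein, had 1.05 and 0.74 (SE 0.134 and 0.122). ELN, the elastin gene, had 0.52 on 1 probe set (SE 0.116; adjusted p = 0.0354 by limma) and 0.23 on the other, which did not pass. It lost its call when any of the 3 pairs was left out (adjusted p = 0.0617 to 0.139). FBN1 at 0.68 thus stood below both LTBP genes.

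In the SPARC family the called gene was not SPARC but SMOC2, which encodes a calcium-binding protein with a SPARC-like domain. SMOC2 had differences of 1.40 and 1.10 on its 2 probe sets (SE 0.135 and 0.142), with 1.29, 1.15 and 1.75 in the 3 replicates on the first. SPARC itself had -0.20. The CCN family, matricellular proteins of another build, held the only lower calls. CCN3 fell by 1.40 and 1.29 log2 units on its 2 probe sets (SE 0.125 and 0.111), and CCN5 had a difference of -0.74 (SE 0.152), a call lost without replicate 1 or 2 (adjusted p = 0.118 and 0.168). 

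Among 8 further measured genes of fibronectin binding and assembly, ITGA5 and TGM2 were higher. ITGA5, the alpha chain of the classical fibronectin receptor, had 1.21 on 1 probe set (SE 0.131), while its other probe sets had 0.09 and 0.06. TGM2, a transglutaminase that cross-links fibronectin, had 1.37 (SE 0.260), with 2.34, 0.68 and 1.10 in the 3 replicates. FN1 itself, at 0.31 and 0.00, did not pass. No measured gene passed among the other thrombospondins, the tenascins, the FAS1 proteins STAB1 and STAB2, or the matrilins and other cartilage linkers. TNXB was the only tenascin measured besides TNC. Of 13 matrilins and other linkers 5 were measured, with MATN1 as the only matrilin. The lowest unadjusted p among the genes of these lists outside the group of 10 belonged to THBS3, TNXB, STAB1 and PCOLCE2, with differences of 0.16, 0.07, 0.12 and -0.27.

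**Figure D5:**
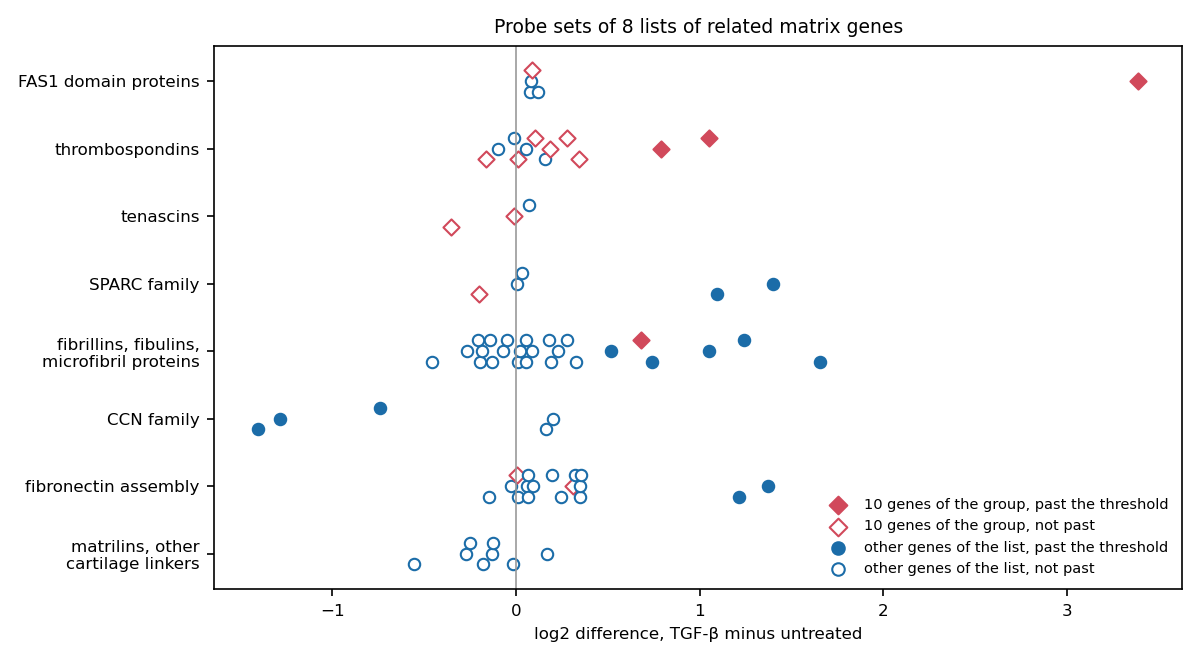
Log2 difference, TGF-β minus untreated, of each probe set on 8 lists of related matrix genes, with the 10 genes as diamonds, the others as circles, and filled symbols for an adjusted p under 0.05. TGFBI stands alone among the FAS1 proteins, filled symbols of the microfibril list lie between 0.52 and 1.65, and the CCN list has those below 0.

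Markers of other cell types were set beside these results. Of 15 probe sets of fibroblast or synovial markers, 0 were higher and 4 were lower (COL1A2, S100A4 and VIM), with list medians of -0.18, 0.13 and -0.11 on the TGF-β arrays, against -0.06, 0.32 and -0.01 on the untreated arrays. Of 9 macrophage and 11 endothelial probe sets, 0 were called in either direction. Of 7 osteoblast probe sets 1 was lower (IBSP), and of 13 chondrocyte probe sets 1 was lower (CNMD). Over all probe sets 2.44% were higher and 3.46% were lower. COL1A2 is counted with both its probe sets, and IBSP is on the study's own list from these arrays. Whether defining markers of these cells were near 0 cannot be seen in centred values. Their part in the differences of the 10 genes was not tested.

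Genes were also ranked by the likeness of their pattern to that of DPT, as Pearson's r over the 6 arrays, among 9164 genes by their best probe set. The 5 highest were SCNN1G, a sodium channel subunit (r = 0.995), EED, a Polycomb protein (0.983), CCN1 (0.981), PLOD2, which hydroxylates collagen lysines (0.980), and IL1RN, the interleukin 1 receptor antagonist (0.973). All 5 had higher values on the TGF-β arrays and, like DPT, their highest untreated value in replicate 2. Both traits follow from ranking by likeness to DPT on these same arrays. A place in this ranking is not a call. CCN1 did not pass the threshold (adjusted p = 0.480 in limma's paired fit). SCNN1G and IL1RN also had small differences, 0.40 and 0.21, and no call is claimed here for them or for EED and PLOD2. Over the 5 genes the differences varied from 0.16 for CCN1 to 1.50 for EED, since r takes no account of size. With 6 arrays that share the treatment, many genes reach a high r, and these are given as a description.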

How the data were processed

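Total RNA was amplified in 2 cycles from oligo(dT) primers and hybridised to Affymetrix Bovine Genome Arrays (3 TGF-β, 3 untreated). Per the study's methods, the authors subtracted background and normalized by Robust Multichip Average in GeneSpring; the deposited log2 values, centred per probe set, were used as they are. Such summaries shrink differences at low signal, and centring left no level on which dim probe sets could be removed. Of 24128 probe sets, 112 controls were left out. Symbols came from the platform annotation, updated through Entrez IDs (13263 of 13292 probe sets with 1 symbol), or from the study's list where blank (24 probe sets).

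Limma 3.58.1 (R 4.3.3) was fitted with treatment and replicate number (residual df 2, prior df 6.72, prior SD 0.144), 2-sided, with Benjamini-Hochberg adjustment. Deviations from the group means correlated between same-numbered arrays (r = 0.740, 0.694 and 0.845 across probe sets). The pairing rests on this and on the methods, where each of 3 cows probably gave both cultures; the labels do not name the cow. P-values measure only the spread between these cultures. The fit was tested on simulated data (24016 probe sets, 200 changed, 10 draws): it recovered 11.2%, 95.0%, 100% and 100% of changes of 0.5, 1, 2 and 3 log2 units, with a mean of 4.30% of calls false. Shifts of 2 log2 units in 1 replicate were recovered in 99.8% of cases by the replicate term. Simulated residuals were independent, and each TGF-β change was the same in every replicate. In DPT, by contrast, the differences of the 3 replicates had an SD of 1.26. The rates hold only for the simulated setting. Alternatives were no replicate number, the methods' unequal-variance test, quantile and median normalization, a robust prior, gene means and leaving out each pair. The genes, lists and tests were chosen with earlier results of these data known. Named were every probe set of the 10 genes, and from each list every gene past the threshold or, with none, that of lowest p. Figures were drawn with matplotlib 3.10.9.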

Additional observations from a re-analysis of the deposited data

How the results depend on the processing

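Differences of the 6 probe sets past the threshold kept their direction after quantile and median normalization. The other alternatives could not reverse it, since each of the 3 pairs was higher with TGF-β in all 6. The count of 6 fell to 0 with no replicate block and to 0 with the methods' unequal-variance test, and to 3 after quantile normalization, where both COMP probe sets and FBN1 lost their calls; with each pair left out it was 3 to 6. Counts over all probe sets were 585 higher and 832 lower. They were 0 and 0 with no replicate block, 0 and 0 with the unequal-variance test (1032 at an unadjusted p under 0.05), 377 and 443 after quantile normalization, 218 and 431 over gene means, and 272 to 590 and 267 to 747 with a pair left out (301 and 513 without replicate 1, 272 and 267 without replicate 2). The related genes had 9 probe sets higher and 3 lower in the paired fit, 0 and 0 without the replicate number and by the unequal-variance test, and 5 genes higher over gene means. The replicate term called 5 probe sets of the group, 3 after quantile normalization, 2 over gene means and 3 to 4 with a pair left out. TGM2 missed the threshold after quantile normalization (adjusted p = 0.0512 by limma). Leaving out a pair leaves 1 residual degree of freedom. The cause of these changes was not tested. In the simulated data, with 3 arrays per group, changes of 0.5 log2 units were seldom recovered.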
